A study of Homo sapiens with 12 samples.

Results

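K294A induction was compared in cytoplasmic RNA that had not been digested with Xrn1. The comparison uses 6 of the 12 arrays of the study, chosen by their labels: 3 arrays of induced cells (CM1, CM2 and CM3) against 3 of uninduced cells (CM4, CM5 and CM6). All 6 samples came from U2OS, a human osteosarcoma line, stably carrying K294A and grown in McCoy's 5A medium with serum. Induced cells received doxycycline at 1 ug/ml for 24 h and uninduced cells received none. The drug and K294A therefore cannot be told apart in these samples, and all 6 carry the transgene. In every sample RNA was taken from a cytoplasmic extract and depleted of ribosomal RNA. The labels call the samples biological replicates without saying whether they are separate cultures. Each p therefore measures only spread between these samples, which may be technical. In the fit of these 6 arrays that spread was estimated over genes of like level, not from the values of the gene itself. The other 6 arrays hold the same cells' RNA after digestion in vitro with Xrn1 and enter only where named.

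Messenger RNAs receive a methylated guanosine cap at the 5′ end in the nucleus, where the capping enzyme, encoded by RNGTT, acts on nascent transcripts. A cytoplasmic pool of capping enzyme can restore caps on RNAs that have lost them, and K294A is a catalytically inactive form used to block that pool. RNAs with an uncapped 5′ monophosphate are substrates of the 5′ to 3′ exonuclease Xrn1. The question put to these 6 arrays is which steady-state cytoplasmic levels differ after induction.

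Levels are log2 values, where 1 unit is a factor of 2. Each of 16883 genes was given the mean of its kept probe sets, 3 to 239 a gene with a median of 12. Of these genes, 2 fell after induction and 0 rose (limma, trended prior, Benjamini-Hochberg adjusted p under 0.05), or 0.0118% lower and 0% higher. Both that fell are mitochondrially encoded subunits of complex I of the respiratory chain, ND1 and ND4. At an unadjusted p under 0.05 there were 1463 lower genes (8.67%) and 309 higher (1.83%). Scaling turned that balance: centring gave 694 lower and 2096 higher, cyclic loess 947 and 1514, and quantile normalisation 1034 and 1408. The median difference over all genes was −0.35, and 63.5% of genes had a lower mean in induced cells. In bulk RNA, fewer cells of a kind and less RNA per cell cannot be told apart.

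The 6 arrays did not divide cleanly by induction. The first principal component, with 52.09% of the variance, placed CM1 at −53.88 and CM2 at −72.65, but CM3 at 20.37, among the uninduced arrays at 12.51, 59.34 and 34.31. Across genes, which are not independent replicates, arrays correlated at 0.835 to 0.888 within the induced group, 0.837 to 0.967 within the uninduced group and 0.616 to 0.979 between them. The induced array CM3 and the uninduced array CM6 were the pair at 0.979. The median gene stood at 3.08, 3.19 and 3.68 on the induced arrays and at 3.61, 3.33 and 3.82 on the uninduced arrays, so the groups overlapped.

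The share of genes with lower induced values rose with the level of the gene, while the median difference changed little from a level of 4 upward. Of 5530 genes with a mean level under 3, 4.4% had all induced values below all uninduced values and 15.1% had them above, with a median difference of −0.03. Over the whole table these shares were 17.4% below and 5.82% above. Among 3051 genes at levels of 4 to 5 the shares were 32.6% and 0.4%, and among 586 genes at 6 to 8 they were 44% and 0%, with medians of −0.54 and −0.56. In the brightest class, 74 genes above 8, 98.6% of genes had a lower mean in induced cells.

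The arrays took different shapes across levels. CM1 was lowest at levels of 5 to 6, where its median gene lay −0.997 from the uninduced mean. CM2 was lowest at 3 to 4 (−0.76) and lay nearer the uninduced mean under 3 (−0.06) and at 6 to 8 (−0.14). CM3 went from 0.22 under 3 to −0.68 above 8. A lower induced value therefore came mainly from CM1 and CM2 among dim genes, and from CM1 and CM3 among bright ones. The part that these array shapes play in the differences of single genes was not tested.

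**Figure D1:**
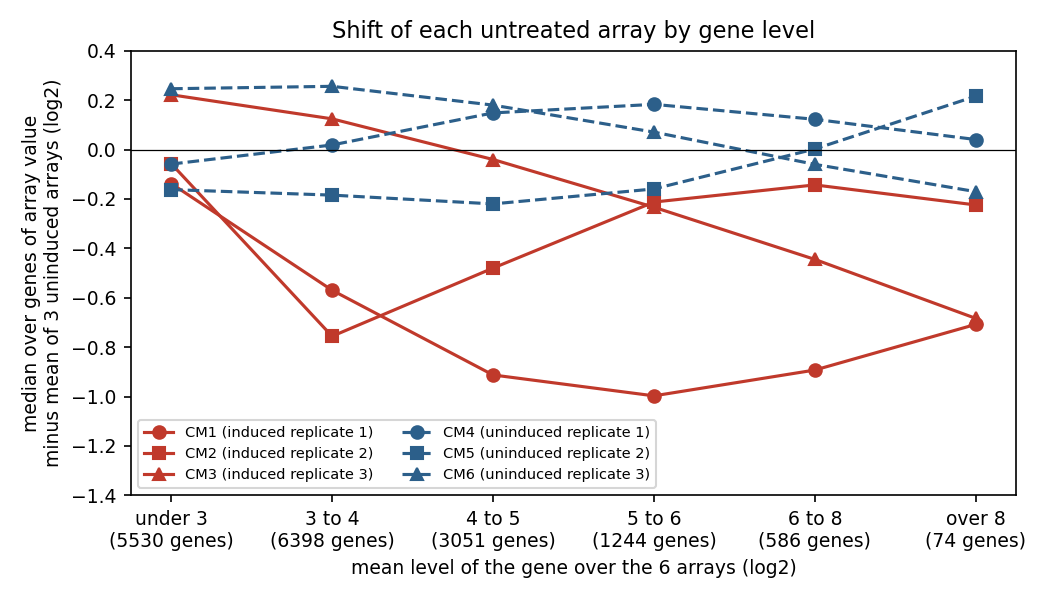
The vertical axis is the median over genes of an array's value minus the mean of the 3 uninduced arrays (log2), and the horizontal axis is the mean level of the gene in 6 classes. Each line is 1 array, red for induced and blue for uninduced. CM3 lies with the uninduced arrays in the dimmest class (0.22) and beside CM1 in the brightest (−0.68 against −0.71).

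Mitochondrial transcripts were among the brightest RNAs measured. They are made inside mitochondria from the mitochondrial genome and carry no nuclear cap. ND1 stood at 10.06, 10.24 and 9.77 on the induced arrays and at 11.07, 11.22 and 10.51 on the uninduced arrays. The groups did not overlap, and the nearest values, those of CM2 and CM6, were 10.24 and 10.51. The means were 10.03 ± 0.24 and 10.93 ± 0.38 (SD, n = 3), a fall by 0.91 (SE 0.15, 95% confidence interval −1.21 to −0.61, limma adjusted p = 5.69e-05), seen in 4 of 4 probe sets.

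ND4 encodes another membrane subunit of complex I. Its induced values were 9.24, 9.79 and 9.07 and its uninduced values 10.23, 10.93 and 9.87. The highest induced value, on CM2, and the lowest uninduced value, on CM6, lay close together but did not cross. Means were 9.37 ± 0.37 and 10.34 ± 0.54 (SD, n = 3), and ND4 fell by 0.98 (SE 0.18, 95% confidence interval −1.34 to −0.62, limma adjusted p = 0.000787), in 5 of 5 probe sets.

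Both calls rest on the small spread that limma assigned to bright genes. The SD used was 0.19 for ND1 and 0.22 for ND4, below the SDs of their own values in either group, and the estimated prior was infinite, so a gene's own spread carried no weight. With each gene's own spread neither passed (limma adjusted p = 0.426 for both), nor with a spread common to all genes (adjusted p = 0.334). After each array was centred on its median gene ND1 was at −0.64 and ND4 at −0.71, and after quantile normalisation at −0.11 and −0.28, none of them passing.

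Both calls were also lost when CM1, CM3, CM4 or CM5 was left out, with ND1 between −0.93 and −0.76 and ND4 between −1.03 and −0.68. Without CM2 18 genes passed as lower, and without CM6 10. The 1463 genes lower at an unadjusted p under 0.05 became 271 without CM1, 287 without CM6, 471 without CM4, 668 without CM2 and 6335 without CM3, and the 309 higher ones became 71 without CM5, 92 without CM1, 152 without CM4 and 524 without CM3. An exact permutation test of 3 against 3 cannot go below 0.1 for any gene.

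ND2 and ND5, also of complex I, lay near these values without passing. ND2 was at 9.28, 9.63 and 9.54 against 10.56, 10.44 and 9.85, a difference of −0.80 (limma adjusted p = 0.0628). ND5 was at 9.46, 9.79 and 9.24 against 10.05, 10.95 and 9.84, a difference of −0.79 (limma adjusted p = 0.064). Neither pair of groups overlapped.

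Subunits of the later complexes differed less than ND1, ND2, ND4 and ND5, a contrast that was not tested. The cytochrome oxidase subunits COX1, COX2 and COX3 were at −0.56, −0.44 and −0.72, the ATP synthase subunit ATP6 at −0.48 and CYTB, the cytochrome of complex III, at −0.46. Their limma adjusted p ran from 0.0641 to 0.143. COX2 and ATP6 had groups apart, while in COX1, COX3 and CYTB 1 or more induced arrays stood at or above CM6.

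ND6, a further complex I subunit, is the mitochondrial mRNA transcribed from the opposite strand to the rest. It stood at 8.70, 8.46 and 7.93 after induction and at 8.93, 8.52 and 7.29 without, a difference of 0.12 (SE 0.27, limma adjusted p = 0.815). Its 95% confidence interval, −0.41 to 0.66, does not reach the differences of ND1 or ND4. That interval uses the spread limma assigned to genes of its level, not that of ND6's own values, which ran from 7.29 to 8.93 without induction. It therefore does not set ND6 apart from them. The difference between ND6 and the others was not itself tested.

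Together, 10 mitochondrial mRNAs were measured. The mean was lower in induced cells for 9 of them, 6 had groups apart (60%) and 2 passed, with a median of −0.64. Over all genes 63.5% had a lower mean and 17.4% were lower and apart, with a median of −0.35. Among 74 genes above 8 these values were 98.6%, 45.9% and −0.54, and the list's median level was 10.18. On single arrays the median member stood −0.68 from the uninduced mean on CM1, −0.39 on CM2 and −0.75 on CM3. Centring reduced the list's median to −0.38 and cyclic loess to −0.09, where the median of all genes was −0.08 and −0.10. Nuclear copies of mitochondrial sequence can share probes with these genes.

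**Figure D2:**
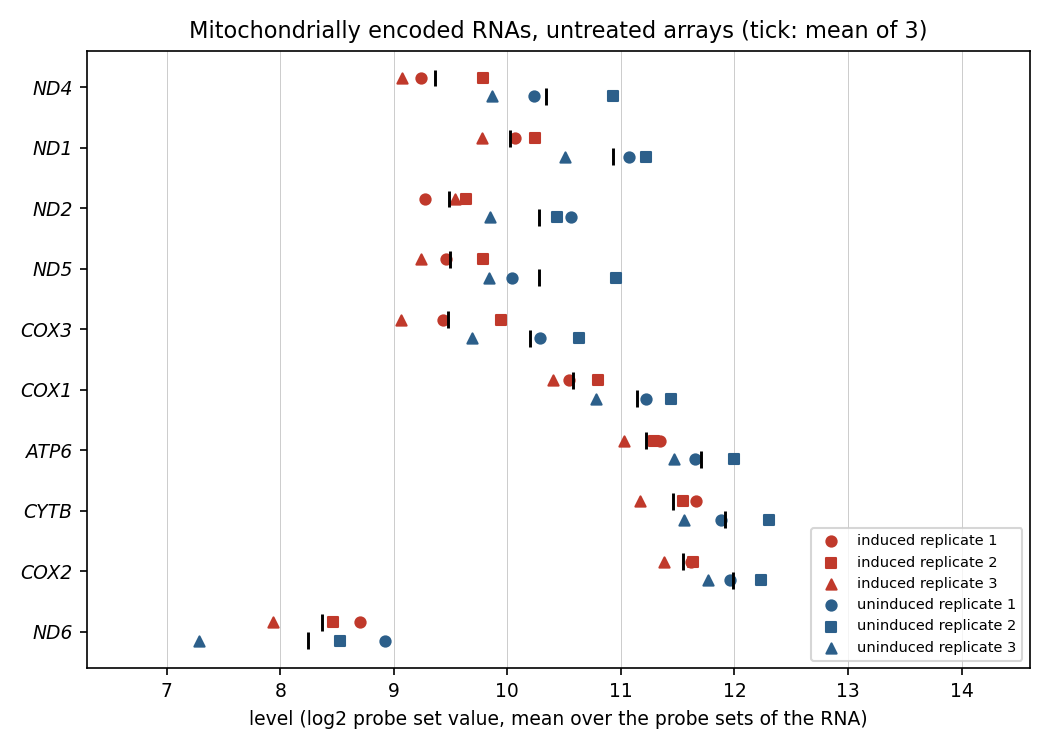
Each point is the log2 level of a mitochondrially encoded RNA on 1 array (horizontal axis), red for induced and blue for uninduced, and the tick is the mean of 3. ND1 and ND4, which passed, have all red points left of the blue ones, while the red and blue points of ND6 overlap.

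The remaining large differences did not pass at an adjusted p of 0.05. Among genes at a level of at least 4 in the higher group and with groups apart, MAP1LC3B2 had the largest. This paralog of the autophagy protein LC3B was at 3.05, 3.47 and 3.99 after induction and 5.14, 4.92 and 5.09 without, a difference of −1.54 (SE 0.47, limma adjusted p = 0.388). All induced arrays were more than a unit below all uninduced ones except CM3, at 3.99 against 4.92. Its 3 probe sets can share signal with MAP1LC3B, so the source of this signal is uncertain.

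MYL2, a cardiac and slow muscle myosin light chain, was at 3.32, 4.65 and 4.44 against 5.81, 5.97 and 5.12 (−1.49). NUDT11, a diphosphoinositol polyphosphate phosphatase, was at 3.58, 3.47 and 4.55 against 5.24, 5.92 and 4.91 (−1.49). In both, CM3 and CM6 came within a unit of each other. Neither passed (limma adjusted p = 0.388 for both).

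IFIT5 and IFITM3, described with the interferon-induced genes, came next, and then 5 more genes. CHCHD1 and MRPL48, proteins of the mitochondrial ribosome, differed by −1.37 and −1.34, and RPS19BP1, a nucleolar partner of ribosomal protein S19, by −1.33. The water channel AQP11 was at −1.34 and TCEAL8 at −1.32. For all 5 limma's adjusted p was 0.388, a value shared by many genes because the adjustment levels neighbouring p.

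In the other direction, 3 genes met these conditions and had an unadjusted p under 0.05. SMCO1, a membrane protein, was at 4.70, 4.45 and 3.63 after induction and 2.85, 2.90 and 3.57 without, a difference of 1.16. IVL, the involucrin of keratinocyte envelopes, was at 3.73, 4.46 and 3.85 against 3.58, 1.99 and 3.56, a difference of 0.97. SIX3, a forebrain and eye homeobox factor, was at 5.07, 5.02 and 4.43 against 4.05, 3.51 and 4.16, a difference of 0.93. In SMCO1 the CM3 and CM6 values all but met, and in IVL the uninduced array CM5 stood far below the rest. None passed (limma adjusted p = 0.388 for all 3).

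The largest positive difference of all, chosen after its values were seen, belonged to the provisional locus LOC100130452. It was at 3.83, 3.35 and 3.95 against 2.27, 1.77 and 2.12, a difference of 1.66 (limma adjusted p = 0.151), with 3 probe sets of which 1 was lower in induced cells. The groups were far apart. It passed after centring (1.93), cyclic loess (1.80) and quantile normalisation (1.89).

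**Figure D3:**
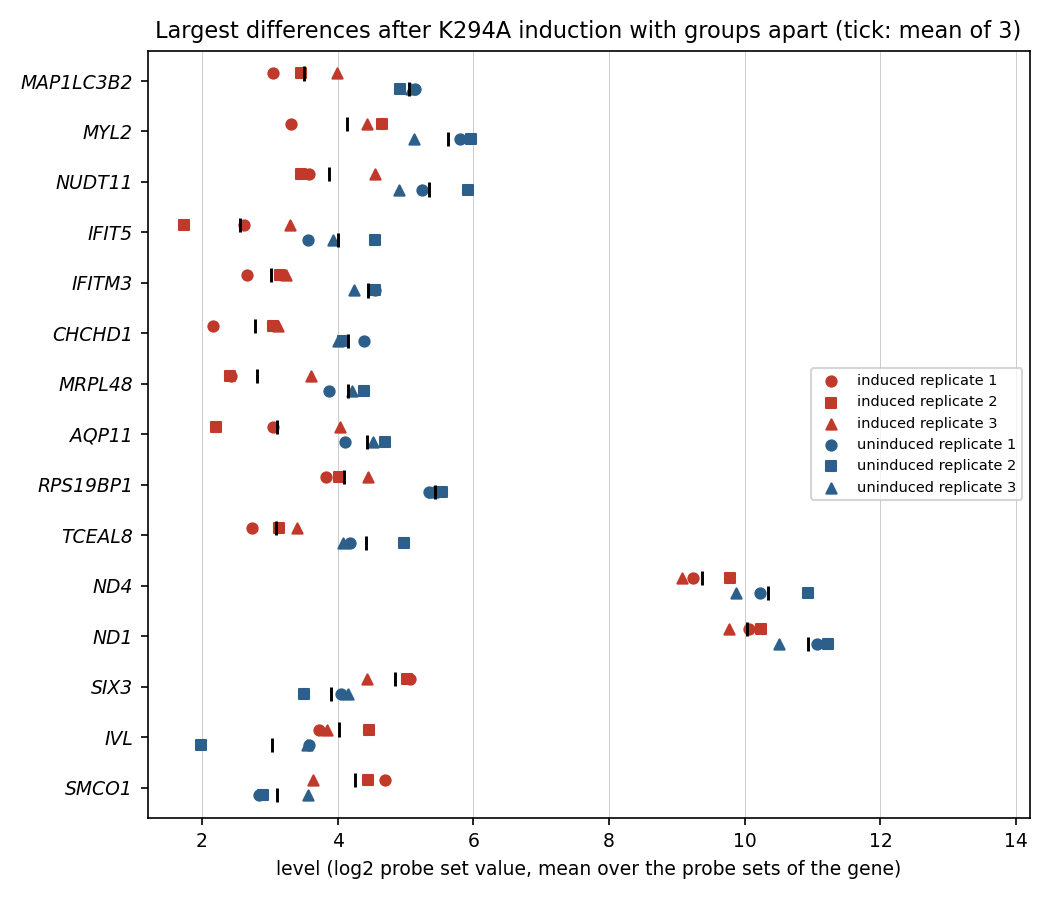
The log2 level (horizontal axis) of each gene on the 3 induced (red) and 3 uninduced (blue) arrays is drawn by replicate symbol, with a tick at the mean of 3. ND1 and ND4 are the only genes shown that passed, and the triangles of CM3 and CM6 are often the closest red and blue points.

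The capping machinery was measured by 14 genes. RNGTT itself was at 3.26, 4.56 and 4.18 after induction and at 4.28, 2.77 and 4.33 without. The groups overlapped and the widest value was the low one of CM5. The difference was 0.21 (SE 0.47, 95% confidence interval −0.71 to 1.12, limma adjusted p = 0.816). Whether any of the 24 probe sets matches the K294A transgene is not given in the sources used here, so this level does not check induction.

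Of the cap-related genes, 5 of 14 had lower, non-overlapping values after induction, beside 17.4% of all genes, and 0 passed. DCPS, the scavenger of cap remnants after decay, was at 2.34, 2.83 and 3.50 against 3.67, 3.91 and 3.93 (−0.95). RNMT, the cap guanine methyltransferase, was at 3.91, 4.94 and 5.01 against 5.53, 5.45 and 5.37 (−0.83). In both, CM1 was the lowest array and CM3 the nearest to the uninduced group. PCIF1, which methylates the first adenosine next to the cap, was at −0.88 with overlapping groups, and NUDT12, which removes NAD caps, at 0.74. The list's median was −0.36 beside −0.35 over all genes, and cyclic loess turned it to 0.0019.

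Published work on cytoplasmic capping names targets of which 4 of 6 listed were measured. ZNF207, a kinetochore-associated zinc finger protein, was at 4.72, 5.78 and 5.58 against 6.15, 6.12 and 6.01, a difference of −0.73 with groups apart. ITGB1, the integrin beta 1 subunit, was at 7.82, 8.50 and 7.94 against 8.82, 8.70 and 8.44 (−0.57), with CM2 inside the uninduced range. ILF2 and VDAC3 were at −0.35 and −0.24 with overlapping groups. None passed (limma adjusted p from 0.388 to 0.703). The list was in part chosen on samples of this study, and its median of −0.46 turned to 0.05 after cyclic loess and 0.06 after quantile normalisation.

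Decapping and 5′ to 3′ decay was a list with many separated members. Of 18 genes, 10 had all induced values below all uninduced values (55.6%, beside 17.4% of all genes and 32.6% at levels of 4 to 5), with a median of −0.70, and 0 passed. DCP1B, a decapping cofactor, was at 2.63, 3.10 and 3.98 against 4.38, 4.19 and 4.26 (−1.04). LSM7, of the ring that binds deadenylated ends, was at 2.88, 2.12 and 3.68 against 3.94, 3.71 and 4.01 (−0.99). The nuclear exonuclease XRN2 was at −0.97 and the helicase DDX6 at −0.84. The uninduced values of these genes lay close together while the induced ones spread widely, and CM3 was the closest to the uninduced group in all 4.

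The enzymes DCP2 and XRN1 of that pathway had overlapping groups. The decapping enzyme DCP2 was at 3.96, 5.15 and 4.54 against 5.62, 3.72 and 4.67 (−0.12). XRN1, the cellular exonuclease, was at 3.10, 4.02 and 3.87 against 4.12, 2.58 and 3.99 (0.10, limma adjusted p = 0.925). In both, CM5 was the lowest of the uninduced arrays and of all 6. The difference of XRN1 turned negative when CM2, CM3 or CM5 was left out.

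Among 29 deadenylation and exosome genes, 8 had lower, separated values (27.6%, beside 17.4% of all genes and 32.6% at levels of 4 to 5) and the median was −0.48. The poly(A) ribonuclease PARN was at 3.19, 4.01 and 4.64 against 4.92, 4.92 and 5.05 (−1.02) and PAN3, of the other early deadenylase, at −0.97. Of 11 nonsense-mediated decay genes, 4 were lower and apart (36.4%), with a median of −0.69. The helicase UPF1 was at −0.91 and the exon junction protein CASC3 at −0.89. None of these genes passed, and after centring the medians were −0.22 and −0.43.

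Translation genes were bright, with a median level of 6.01 for ribosomal proteins and 6.23 for factors. Of 68 cytosolic ribosomal protein genes, 62 had a lower induced mean, 23 had groups apart (33.8%, beside 17.4% of all genes and 44% at levels of 6 to 8) and 0 passed. The median was −0.44, which quantile normalisation took to −0.0028 and cyclic loess turned to 0.03. The stalk protein RPLP1 was at 7.33, 7.38 and 7.19 against 8.08, 8.68 and 7.94 (−0.93, limma adjusted p = 0.388). RPS19, of the small subunit, was at 5.29, 5.87 and 5.45 against 6.61, 6.63 and 6.50 (−1.04). In both genes the groups were well apart on every array. RPLP0, another stalk protein, was at 8.01, 8.70 and 8.05 against 8.75, 9.13 and 8.67 (−0.60), with CM2 above CM6. BOP1, a ribosome biogenesis factor, was at −0.75 with overlapping groups.

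Of 33 initiation and elongation factors, 15 were lower and apart (45.5%), with a median of −0.54. The translocase EEF2 was at 7.95, 8.46 and 8.18 against 8.68, 9.08 and 8.69 (−0.62). EIF3L, a subunit of the scanning complex, was at −0.82, and EEF1A1, which delivers aminoacyl-tRNA, at −0.29 with overlapping groups. None of the 33 passed, and the share with groups apart in the level class of 6 to 8 was 44%.

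Mitochondrial proteins are also encoded by nuclear genes. Of 74 nuclear-encoded oxidative phosphorylation subunits, 24 were lower and apart (32.4%, beside 17.4% of all genes and 32.6% of genes at levels of 4 to 5), with a median of −0.51. The complex I subunit NDUFB6 was at 1.94, 1.22 and 2.64 against 3.00, 3.22 and 3.42 (−1.28), and NDUFB8 of the same complex was at −1.24. Of 75 mitochondrial ribosomal protein genes, 51 had a lower induced mean and 29 were lower and apart (38.7%), with a median of −0.41 beside −0.35 over all genes. MRPL48 was at 2.43, 2.41 and 3.61 against 3.87, 4.38 and 4.22, and MRPS12 at −1.19. None of these genes passed, and cyclic loess left medians of −0.08 and −0.01.

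Among the 28 lists, cytoskeletal genes had the largest share of separated members. Of 30, 21 (70%) had all induced values below all uninduced ones, beside 17.4% of all genes and 44% of genes at levels of 6 to 8, near their median level of 6.06. Of the 30, 0 passed, and the median was −0.62, or −0.36 after centring. VIM, the intermediate filament of mesenchymal cells, was at 6.85, 7.41 and 7.0 against 7.79, 7.80 and 7.77 (−0.70). TUBA1A, an alpha tubulin, was at 5.11, 5.70 and 5.88 against 6.42, 6.80 and 6.50 (−1.01), and ACTG1, cytoplasmic gamma actin, was at 8.10, 8.56 and 8.20 against 9.03, 9.11 and 8.79 (−0.69). In all 3 the groups were apart. ACTB, beta actin, was at 9.51, 9.71 and 9.78 against 10.24, 10.06 and 10.04 (−0.45), and it turned to 0.10 after cyclic loess. TUBA1B at −0.54 turned to 0.01, and near-identical actins and tubulins may share probe signal.

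Interferon-induced genes detect viral RNA, and some of their products bind uncapped or incompletely capped 5′ ends. Of 32 measured, 25 had a lower induced mean, 5 were lower and apart (15.6% beside 17.4% of all genes), and 0 passed. Higher and apart was 1, beside 5.82% of all genes. IFIT5, a sensor of 5′ phosphates, was at 2.62, 1.74 and 3.30 against 3.56, 4.55 and 3.93 (−1.46). IFITM3, a membrane protein that restricts virus entry, was at 2.66, 3.15 and 3.24 against 4.56, 4.56 and 4.24 (−1.44). STAT2, of the interferon signalling complex, was at 2.62, 2.81 and 3.92 against 4.47, 4.25 and 4.22 (−1.20).

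IFIT1, which binds RNA lacking cap methylation, was at 2.76, 2.66 and 3.23 against 4.66, 3.58 and 3.90 (−1.16). RSAD2, the antiviral enzyme viperin, went the other way in its means, at 3.33, 2.71 and 2.55 against 1.69, 1.67 and 2.24 (1.00). Its mean level was under 3, the dim end of the arrays, where 15.1% of all genes were higher and apart. IFIT5, IFITM3, STAT2, IFIT1 and RSAD2 all had groups apart, and limma's adjusted p was 0.388 for each. IFITM2, a close paralog of IFITM3, was at −0.67 with overlapping groups and may share its probe signal.

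Stress programmes gave no passing gene. Of 37 integrated stress response genes, 13 were lower and apart (35.1%, beside 17.4% of all genes and 32.6% at levels of 4 to 5). Higher and apart was 1, beside 5.82% of all genes, and the list's median was −0.58. The factor ATF5 was at 2.68, 1.80 and 3.51 against 3.81, 3.90 and 3.62 (−1.11), and ATF4, the central factor of that response, at 5.34, 5.45 and 5.76 against 5.94, 6.50 and 6.16 (−0.69). Both had groups apart. Of 24 p53-related genes, 6 were lower and apart (25%) with a median of −0.44. MDM2, the ligase that degrades p53, was at −0.97, and CDKN1A, the cell cycle inhibitor induced by p53, at −0.10 with overlapping groups. Among 22 heat shock and chaperonin genes 6 were lower and apart (27.3%). Their median level was 5.99, and at levels of 5 to 6 the share was 43.5%. Their median difference of −0.24 turned to 0.03 after centring and 0.26 after cyclic loess.

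Of 47 immediate early and short-lived mRNAs, 5 were lower and apart (10.6%), and their median of −0.32 turned to 0.04 after quantile normalisation. IER2 was at 2.47, 2.49 and 3.66 against 3.77, 4.21 and 3.91 (−1.09). The share of this list that was lower and apart was below that of all genes, 17.4%. At levels of 3 to 4, where the list's median level of 3.76 lay, the share was 13.6%. The median member of this list stood −0.70 from the uninduced mean on CM1, −0.49 on CM2 and 0.11 on CM3.

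The next lists are to be read beside the 17.4% of all genes, 32.6% of genes at levels of 4 to 5 and 43.5% at 5 to 6 whose groups were apart and lower. Their median levels ran from 4.55 to 5.92. Of 50 mitotic genes 16 were lower and apart, of 45 DNA replication genes 13, of 31 proteasome subunits 12, of 57 secretory pathway genes 21, of 23 importins and exportins 6, and of 52 spliceosome and hnRNP genes 15. These are shares of 32%, 28.9%, 38.7%, 36.8%, 26.1% and 28.8%, above that of all genes and below those of genes of like level. Their median differences were −0.43, −0.53, −0.56, −0.27, −0.57 and −0.29. Cyclic loess turned those of the mitotic (0.02), secretory (0.19) and spliceosome (0.16) lists. GINS2, a subunit of the replicative helicase, was at −1.16, the kinesin KIF11 at −1.02 with overlapping groups, and the proteasome subunit PSMB3 at −1.12. None of these genes passed.

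Of 27 glycolysis and hypoxia genes, 10 were lower and apart (37%, beside 17.4% of all genes and 32.6% at levels of 4 to 5), with a median of −0.64. HIF1A, the oxygen-regulated transcription factor, was at 5.11, 6.38 and 6.22 against 7.19, 6.94 and 6.53 (−0.98). GAPDH, a glycolytic enzyme, was at 8.70, 8.44 and 8.69 against 9.04, 9.51 and 9.08 (−0.61). Both had groups apart, and neither passed (limma adjusted p = 0.388). Of 21 sterol synthesis genes, 5 were lower and apart (23.8%), with a median of −0.56.

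Replication-dependent histone mRNAs end without a poly(A) tail, and 10 were measured. Of these 1 was lower and apart, H1-4, at 9.57, 9.92 and 10.03 against 10.65, 10.06 and 10.34 (−0.51), and 1 was higher and apart. The lower share was 10%, beside 17.4% of all genes and 44% at levels of 6 to 8. Of all genes 5.82% were higher and apart. The median was −0.24, which centring turned to 0.03, and H1-4 turned to 0.04 after cyclic loess. No histone passed.

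**Figure D4:**
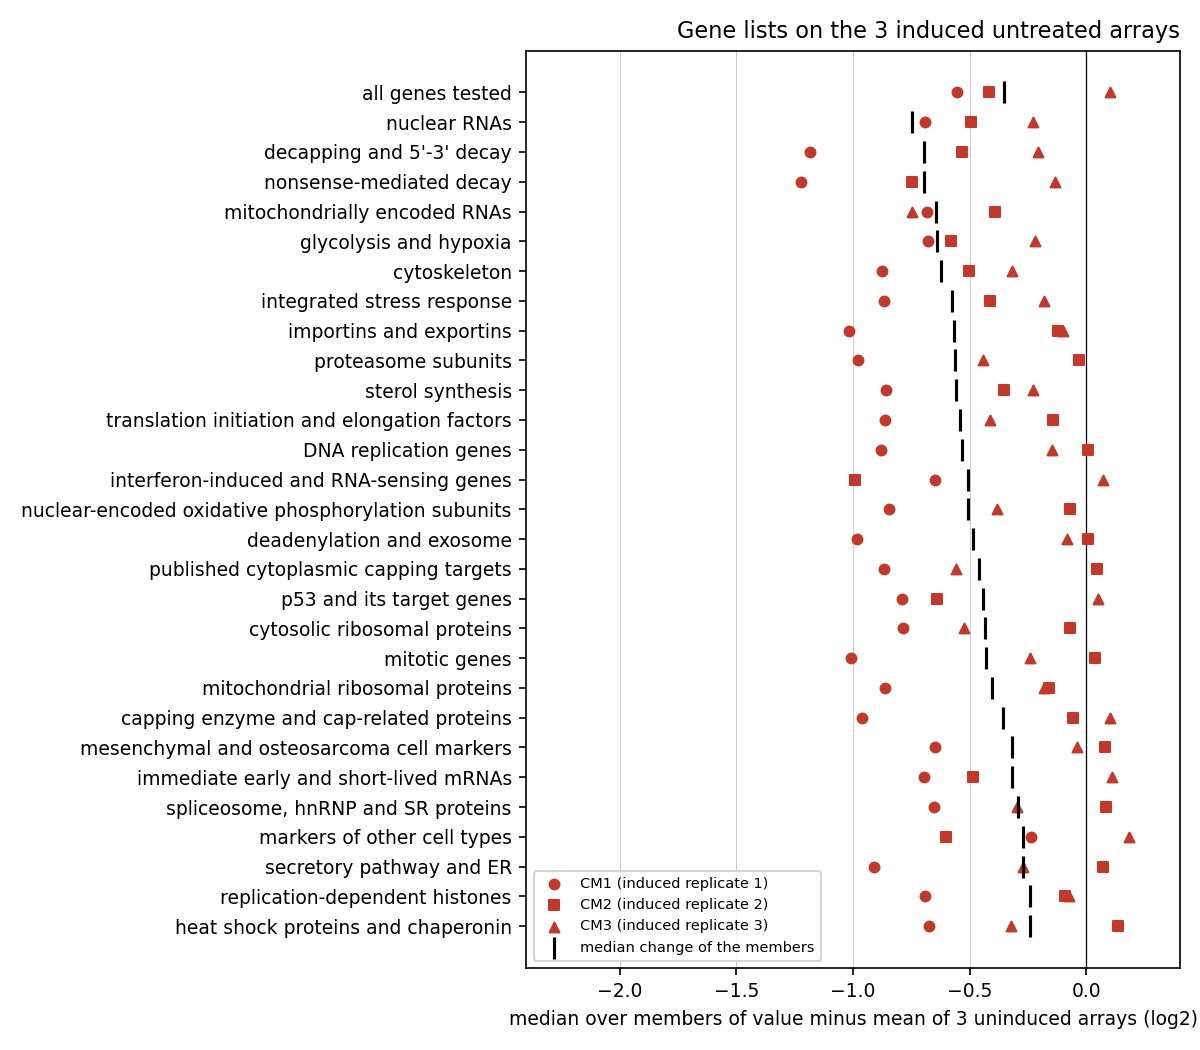
For each gene list, 3 red symbols give the median over its members of an induced array's value minus the uninduced mean (log2), and the black tick the median difference of the members. CM1 lies below 0 for every list, while CM2 and CM3 are near or above 0 for many. For mitochondrially encoded RNAs CM3 (−0.75) and CM1 (−0.68) are lower than CM2 (−0.39).

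Markers of the labelled cell line ranged widely in level. COL1A1, type I collagen of bone matrix, was at 8.24, 8.15 and 8.18 against 8.80, 9.16 and 8.61 (−0.66), with groups apart and limma's adjusted p at 0.388. SPP1, the bone matrix protein osteopontin, was dim, at 3.53, 3.18 and 2.28 against 1.92, 1.39 and 2.42 (1.09), with overlapping groups. Of 10 mesenchymal and osteosarcoma markers 4 were lower and apart (40%, beside 17.4% of all genes and 44% at levels of 6 to 8). Higher and apart were 2, beside 5.82% of all genes. The median of these markers, −0.32, turned to 0.18 after cyclic loess. The median of 15 markers of other cell types was 2.75, 2.69 and 3.13 on the induced arrays and 2.75, 2.97 and 3.17 on the uninduced arrays. Of those, 0 were lower and apart and ALB, the liver albumin, was higher, at 3.26, 3.23 and 2.79 against 2.3, 1.96 and 2.78. Of all genes under 3, where the median level of these markers lay (2.73), 4.4% were lower and apart and 15.1% higher. The brightest of the 15 markers was the T cell gene CD3E, at 4.02 to 5.00 after induction and 4.05 to 4.53 without.

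Nuclear RNAs report how much nuclear material a cytoplasmic extract holds. NEAT1, the scaffold of paraspeckles, was at 3.33, 3.83 and 4.47 against 4.89, 4.52 and 5.00 (−0.93). MALAT1, of nuclear speckles, was at 4.62, 5.34 and 5.01 against 5.99, 5.8 and 5.42 (−0.75). Both were apart, and of the 5 nuclear RNAs measured 2 were lower and apart (40%), with a median of −0.75. The share was 17.4% of all genes and 32.6% at levels of 4 to 5, where the median was −0.54. Of the others, RN7SK, a small nuclear RNA that controls transcription elongation, was at 11.25, 10.80 and 11.07 against 11.21, 11.24 and 11.43 (−0.26), which centring turned to 0.01. The part of nuclear RNA in the other differences was not tested.

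The same induction was measured in RNA digested with Xrn1, on 6 further arrays. There the median over all genes was 0.28, beside −0.35 without digestion, and 9 genes were higher and 1 lower (limma over 12 arrays, adjusted p under 0.05). The difference of both induction effects, undigested minus digested, passed for 3479 genes in the negative direction (20.6%) and 208 in the positive (1.23%). Its median over all genes was −0.70. The SD common to all genes in that fit was 0.42. In the fit of the 6 undigested arrays the median SD was 0.55, so these counts may be too high. With each gene's own spread 0 passed in either direction, and after centring 520 were negative and 1336 positive. After cyclic loess of the 12 arrays they were 165 and 258, so the preponderance of negative genes depends on the scaling.

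These counts treat the 12 arrays as independent, while each digested array carries the number of an undigested one. Subtracting each digested array from the undigested array of its sample and comparing 3 induced with 3 uninduced differences left 137 negative and 8 positive genes. The title of CM1X gives replicate 2, as does that of CM2X, and CM1X was taken here as replicate 1 from its sample number.

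The largest of these among the named genes was IFITM3, at −1.44 in undigested and 1.74 in digested RNA, a difference of −3.18 (SE 0.48, limma adjusted p = 7.73e-07), and 5.61e-05 with samples paired. Both fits used a spread common to the genes (SE 0.48, or 0.54 with samples paired). A gene's own spread thus carried no weight in these p, and the paired fit was not run with it. ND4 was at −0.98 and 1.70, a difference of −2.67 (adjusted p = 0.000265, or 0.00528 with samples paired). ND1 was at −0.91 and 0.88, a difference of −1.78 (adjusted p = 0.0144), which did not pass with samples paired (0.0586). The mitochondrial list had a median of 0.85 in digested RNA beside −0.64 without digestion. Of its 10 members, 6 passed the test of the difference (beside 21.8% of all genes), or 2 with samples paired (beside 0.9%). ND6 did not (0.31, adjusted p = 0.636).

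Some genes kept their sign. H1-4 was at −0.51 in undigested and −0.67 in digested RNA, and RN7SK at −0.26 and −1.01. COL1A1 was at −0.66 and −0.24, and RPLP1 at −0.93 and −0.29. Neither the histone, the collagen nor the ribosomal gene passed in the test of the difference (limma adjusted p = 0.807, 0.5 and 0.289). A missed threshold does not show that the effects were equal.

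The count of genes in this test moved with single arrays. It was 46 negative genes without induced Xrn1 replicate 3, 60 without uninduced Xrn1 replicate 2, 93 without CM1 and 116 without induced Xrn1 replicate 1. Without CM6 it was 642, without CM2 1304, without induced Xrn1 replicate 2 1403, without uninduced Xrn1 replicate 3 1976, without CM5 2043, and without CM3 7736. Positive genes ran from 4 to 664 when 1 array was left out, and were 370 without uninduced Xrn1 replicate 1. The median over all genes stayed negative in all of these fits.

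**Figure D5:**
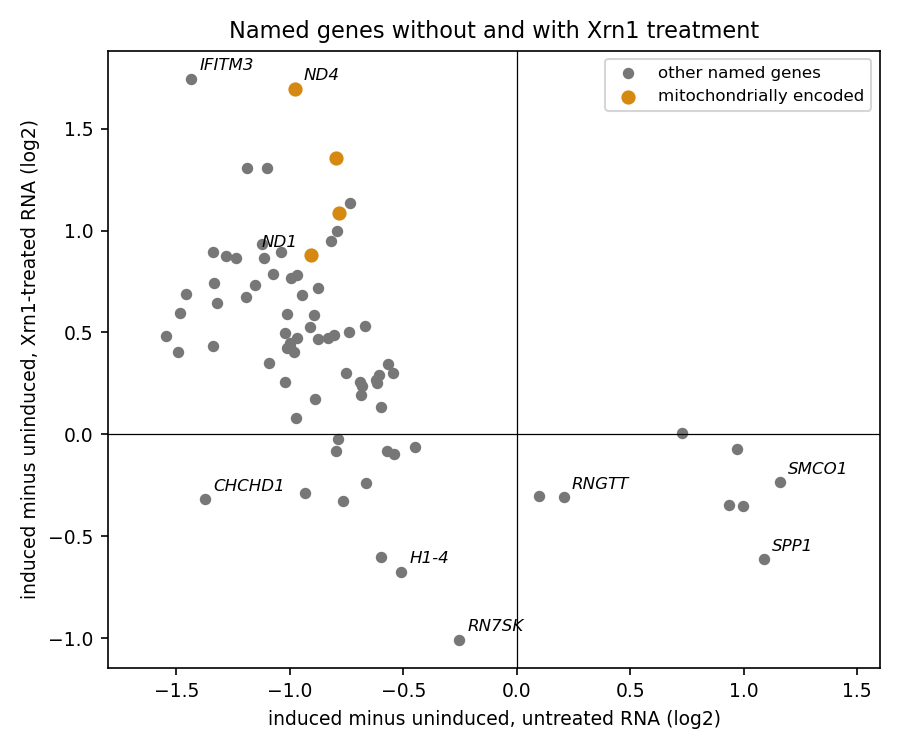
Each point is a named gene, with its difference after induction in undigested RNA on the horizontal axis and in Xrn1-digested RNA on the vertical axis (both log2), mitochondrial genes in orange. Most points left of 0 lie above 0, with IFITM3 (−1.44, 1.74) and ND4 (−0.98, 1.70) at the top, while RN7SK and H1-4 lie below 0 on both axes. The genes were chosen in part by their horizontal position.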

How the data were processed

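Cytoplasmic RNA was measured on human exon arrays. The deposited log2 values, 1 per probe set and array, were normalised by the authors; the submitters' processing notes name RMA and oligo. Their versions and the genome build were not given in the sources used here. Such values are relative to the other RNAs on the array. Array medians were 2.09 to 2.25 and the number of arrays limits the precision.

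Of 1411399 probe sets, 357604 carry 1 gene symbol in the platform annotation, 15322 several and 1038473 none. Those with 1 symbol and a mean over the 12 arrays above 2.04, the median of all, were kept (258175), and genes with at least 3 were tested. Gene values of the 6 undigested arrays were fitted with limma 3.58.1 in R 4.3.3 (lmFit, eBayes with a trended prior), adjusted by Benjamini-Hochberg over 16883 genes. Only these 6 arrays were used because the groups differ in spread. The digested arrays entered a fit of 12 arrays and 4 group means, and a fit of differences within samples.

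Members and the 28 gene lists were chosen with earlier results of these data known. Named genes were the 12 largest differences in each direction with groups apart and a higher group mean of at least 4, passing genes first and then those with an unadjusted p under 0.05; up to 4 members a list by smallest p, of which the text gives those it needs; and RNGTT, XRN1, RPLP0 and BOP1. Other genes in the text are list members named for their role after their values were seen.

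On simulated data of 16883 genes with independent noise, this comparison recovered 14% of changes of 1 and 91% of changes of 2. Under the real genes' covariance it recovered 0% and 61%. That run used a single draw of array deviations shared by all genes, so these are not rates over repeated draws. The main fit did not pair induced and uninduced samples by replicate number.

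Alternatives were a constant prior, a trended and robust prior, each gene's own spread, all 12 arrays, centring, cyclic loess, quantile normalisation, the median of probe sets, other filters, a replicate block, array weights, a minimum fold of 1.5 and the removal of each array. Leaving out CM1 and CM5 together, and the cyclic loess, sample pairing and left-out arrays of the comparison with digested RNA, were added after seeing the data.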

Additional observations from a re-analysis of the deposited data

Results flagged for a closer look

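The results listed here are named genes whose induction effect differed between undigested and Xrn1-digested RNA in the test of that difference (limma over 12 arrays, Benjamini-Hochberg adjusted p under 0.05). There were 49 of 78 named genes (62.8%), beside 21.8% of all genes. Many were named for their difference in undigested RNA, which is part of the tested difference, so the larger share supports nothing. With each sample's digested array subtracted from its undigested one, 17 of the 78 passed, beside 0.9% of all genes. That larger share supports nothing either, for the same reason. With each gene's own spread 0 of all genes passed in either direction, so the values below rest on the spread pooled over genes. Each value is the log2 effect in undigested RNA minus that in digested RNA.

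Positive differences were those of SPP1 (1.70), SMCO1 (1.39), RSAD2 (1.35) and SIX3 (1.28). Their induced means were higher in undigested RNA and lower in digested RNA.

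IFITM3 (−3.18) and ND4 (−2.67) had the most negative. The mitochondrially encoded ND2 (−2.15), ND5 (−1.87) and ND1 (−1.78) were also negative, as were the nuclear-encoded mitochondrial genes MRPS12 (−2.50), MRPL48 (−2.23), NDUFB6 (−2.16) and NDUFB8 (−2.10).

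Of the genes with the largest differences in undigested RNA, IFIT5 was at −2.14, NUDT11 and RPS19BP1 at −2.08, MAP1LC3B2 at −2.03, TCEAL8 at −1.96, MYL2 at −1.9 and AQP11 at −1.77.

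In cap and decay genes the values were −1.94 for DCP1B, −1.87 for the published target ZNF207, −1.76 for LSM7, −1.63 for DCPS, −1.60 for PCIF1, −1.52 for PARN, −1.48 for CASC3, and −1.44 for PAN3 and UPF1.

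Genes of translation, splicing and protein turnover included SNRPD2 (−2.41), PSMB3 (−2.06), EIF3L (−1.77), U2AF2 (−1.75), DNAJA1 (−1.43), PSMB6 (−1.34), CSE1L (−1.29) and RPLP2 (−1.24).

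The remaining ones were ATF5 (−1.98), GINS2 (−1.89), STAT2 (−1.87), GINS3 (−1.86), DHCR7 (−1.79), TUBA1A (−1.60), FOSB (−1.45), IER2 and EDA2R (−1.44), HIF1A (−1.38), MEG3 (−1.30) and KIF11 (−1.28).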

How the results depend on the processing

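The count of 0 genes higher and 2 lower after induction depended on the spread and the scaling. It was 0 and 0 with a constant prior, with a trended and robust prior and with each gene's own spread (limma; 232 and 2185, 284 and 1477, and 303 and 954 at an unadjusted p under 0.05). With all 12 arrays it was 2 higher and 5 lower, and 4 and 5 with a trended prior; the lower genes were IFIT5, MAP1LC3B2, MYL2, NUDT11 and RNF2P1 in both, and the higher ones LOC100130452 and OR2F2, joined by CYP3A4 and IL18R1 with the trended prior. Centring gave 1 and 0, cyclic loess 2 and 0 and quantile normalisation 1 and 0. LOC100130452 was the higher gene in these 3, with SMCO1 in cyclic loess, and the median of all genes went from −0.35 to −0.08, −0.10 and −0.10. The median of probe sets gave 0 and 2, but with RN7SK in place of ND4 (adjusted p = 0.465). No filter gave 1 (LOC100130452) and 11, a filter on the 6 arrays 1 (OR2F2) and 8, and 1 kept probe set a gene 6 and 20. Array weights, which put CM4 and CM6 at 3.03 and 2.98 and CM3 and CM5 at 0.34 and 0.33, gave 164 and 3478. Leaving out 1 array gave 0 to 1 higher (OR2F2) and 0 to 18 lower, and leaving out CM1 and CM5 gave 0 and 0. The genes named here in a clause and not in the report were chosen after their values were seen.

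With the replicate number as a block, 16 genes were lower and 0 higher. Same-numbered samples deviated from their group means with correlations of −0.43, −0.64 and −0.26, and other pairs ran from −0.54 to 0.77. Deviations of 3 arrays from their own mean depend on each other, so these values cannot show whether samples were prepared as pairs.

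The test of the difference between undigested and digested RNA gave 208 positive and 3479 negative genes, 0 and 0 with each gene's own spread, 1336 and 520 after centring, and 258 and 165 after cyclic loess. With the sample as a block (each undigested array paired with the digested one of its number) it gave 8 and 137, and with the replicate number as a block 155 and 2862. Leaving out 1 array gave 4 to 664 positive and 46 to 7736 negative genes.

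Of 78 named genes under 23 alternatives, 1656 of 1782 values kept their direction and side of the threshold and 18 turned. RN7SK turned to 0.0125 after centring, 0.32 after cyclic loess and 0.34 after quantile normalisation. For H1-4 the last 2 gave 0.0402 and 0.11, for TUBA1B 0.0128 and 0.0861 and for ACTB 0.10 and 0.14, and quantile normalisation gave 0.0352 for H2AC20. RNGTT turned to −0.25 with array weights, −0.08 without CM2 and −0.31 without CM5, within a range of −0.31 to 0.58 when 1 array was left out. XRN1 turned to −0.36 with array weights, −0.08 without CM2, −0.01 without CM3, −0.39 without CM5 and −0.11 without CM1 and CM5, within a range of −0.39 to 0.38 when 1 array was left out. Apart from what each setting itself leaves out or rescales, the cause was not tested.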

Other observations

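Some genes outside the lists had values that were tight within each group. They are among the genes with the smallest p when each gene's own spread was used, and they were chosen after their values were seen; the smallest limma adjusted p over all genes was then 0.426. SERPINH1, the chaperone of collagen folding, was at 5.70, 5.69 and 5.72 on the induced arrays and 6.34, 6.46 and 6.27 on the uninduced arrays. PRAME, a tumour antigen, was at 6.99, 7.08 and 7.12 against 7.62, 7.78 and 7.58, and RANBP1, a partner of the transport GTPase Ran, at 4.63, 4.82 and 4.75 against 5.21, 5.26 and 5.22. The zinc finger gene ZNF32 was at 2.86, 2.99 and 3.17 against 4.05, 4.2 and 3.89.

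In the other direction, the intelectin ITLN1 was at 2.68, 2.76 and 2.81 against 1.97, 2.12 and 1.93, and the guanylate-binding protein GBP5 at 2.59, 2.68 and 2.60 against 1.89, 1.70 and 1.95.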
